A study of Mus musculus with 8 samples.

Results

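The Mef2 factors Mef2a, Mef2c and Mef2d and the class IIa histone deacetylases Hdac4, Hdac5, Hdac7 and Hdac9 were followed in myoblasts in which Septin9 was depleted with siRNA. They were taken by their gene symbols from the raw count matrix and make up 7 of its 42391 gene entries. RNA was sequenced from 8 samples in 4 groups of 2 replicates, whose genotype is labelled WT for the controls and Septin 9 KD for the Septin9 siRNA. C2C12 cells, a mouse myoblast line, received a non-targeting siRNA (control) or the Septin9 siRNA at 50 nM (100 nM in the initial 5 h) and were lysed 60 h after transfection, after 12 h in differentiation medium. Primary myoblasts, isolated from the hindlimbs of 5-week-old mice, received the same siRNAs and were lysed 48 h after transfection while still in proliferation medium with FGF and serum. C2C12 is a single immortal line, and the primary cultures were pre-plated on collagen to reduce fibroblasts. Cell type, medium, differentiation and time after transfection differ together between the cell types and cannot be told apart.

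Mef2 proteins are MADS-box transcription factors that bind an A/T-rich DNA element and, together with the myogenic bHLH factors, switch on muscle genes. Class IIa histone deacetylases bind Mef2 on chromatin and recruit corepressor complexes, so that they hold Mef2 target genes silent. Phosphorylation by calcium-dependent and other kinases lets 14-3-3 proteins carry the deacetylases out of the nucleus, which frees Mef2. Their activity is therefore set in large part by phosphorylation and localisation, which RNA counts do not measure.

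The largest difference among the 7 genes was that between the cell types in Mef2c, and the genes called after Septin9 siRNA were Mef2c and Hdac4. Their promoters are printed below, with those of Mef2a and Hdac5, the only members in which the MEF2 consensus element was found. Each runs from 250 bases before to 50 bases after an annotated start, as given by RefSeq on GRCm38.p6, 5′ to 3′ on the strand of the gene. Capitals mark the MEF2 consensus in Mef2a and Hdac5 and the E-box CANNTG, the element of myogenic bHLH factors, in Hdac5 and Mef2c. Both were searched on both strands, and where matches overlap their capitals run together.

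Mef2c promoter, start 1, chr13:83503784-83504083, plus strand: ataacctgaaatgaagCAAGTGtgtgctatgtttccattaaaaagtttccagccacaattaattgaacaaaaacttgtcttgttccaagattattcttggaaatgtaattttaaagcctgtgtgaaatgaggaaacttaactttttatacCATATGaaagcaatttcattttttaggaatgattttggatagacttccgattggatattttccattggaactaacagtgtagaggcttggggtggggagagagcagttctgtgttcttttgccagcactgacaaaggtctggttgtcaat
Mef2c promoter, start 2, chr13:83523406-83523705, plus strand: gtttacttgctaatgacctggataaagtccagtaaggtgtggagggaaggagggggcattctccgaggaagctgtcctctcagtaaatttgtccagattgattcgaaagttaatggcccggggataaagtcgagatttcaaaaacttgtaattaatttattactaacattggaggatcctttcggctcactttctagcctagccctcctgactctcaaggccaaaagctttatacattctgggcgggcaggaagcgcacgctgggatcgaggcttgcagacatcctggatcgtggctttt
Mef2c promoter, start 3, chr13:83573357-83573656, plus strand: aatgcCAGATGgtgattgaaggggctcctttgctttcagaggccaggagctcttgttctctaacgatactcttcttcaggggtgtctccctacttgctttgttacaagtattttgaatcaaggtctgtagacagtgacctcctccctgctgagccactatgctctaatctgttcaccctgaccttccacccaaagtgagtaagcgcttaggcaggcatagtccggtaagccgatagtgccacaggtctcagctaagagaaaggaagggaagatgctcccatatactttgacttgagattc
Hdac4 promoter, chr1:92180292-92180591, minus strand: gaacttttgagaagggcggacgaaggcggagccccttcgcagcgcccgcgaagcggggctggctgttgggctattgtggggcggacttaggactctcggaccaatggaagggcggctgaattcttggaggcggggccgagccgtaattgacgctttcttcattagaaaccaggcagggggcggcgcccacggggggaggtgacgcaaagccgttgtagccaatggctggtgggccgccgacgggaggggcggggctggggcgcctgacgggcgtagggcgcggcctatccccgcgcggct
Mef2a promoter, chr7:67372809-67373108, minus strand: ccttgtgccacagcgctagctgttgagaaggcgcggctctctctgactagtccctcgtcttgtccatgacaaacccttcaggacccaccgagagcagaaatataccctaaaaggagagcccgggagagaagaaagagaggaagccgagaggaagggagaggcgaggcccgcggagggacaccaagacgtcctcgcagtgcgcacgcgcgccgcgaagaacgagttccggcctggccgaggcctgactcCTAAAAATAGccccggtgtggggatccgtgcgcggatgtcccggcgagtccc
Hdac5 promoter, chr11:102230123-102230422, minus strand: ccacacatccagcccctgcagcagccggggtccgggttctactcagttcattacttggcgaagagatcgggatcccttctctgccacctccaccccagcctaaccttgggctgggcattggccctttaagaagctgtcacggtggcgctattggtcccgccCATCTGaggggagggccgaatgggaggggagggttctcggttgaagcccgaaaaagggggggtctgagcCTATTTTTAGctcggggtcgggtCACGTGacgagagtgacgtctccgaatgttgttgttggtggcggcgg

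The MEF2 consensus stood in 3.19% of all 32851 mouse promoters of this length and in 2 of the 13 promoters listed for the members. In Mef2a its letters were CTAAAAATAG, which begin 2 bases before the start, and in Hdac5 they were CTATTTTTAG, which begin 20 bases before it. An E-box stood in 72.3% of all promoters and in 7 of the 13, among them starts 1 and 3 of Mef2c, both starts of Hdac9 and the start of Hdac5. The Hdac4 promoter, with 68.0% G and C, and the Mef2c promoter of start 2 held neither element. The Mef2c promoter of start 1 held 35.7% G and C and 1 CpG, against 32 CpG in the Hdac4 promoter. These are matches of letters in a fixed window, and the counts per gene do not say which start was used.

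On GRCm38.p6 the Mef2 genes lie at chr7:67231163-67376456 (Mef2a), chr13:83504017-83667079 (Mef2c) and chr3:88141941-88172091 (Mef2d). The deacetylase genes lie at chr1:91928779-92195702 (Hdac4), chr11:102195747-102230172 (Hdac5), chr15:97792661-97844502 (Hdac7) and chr12:34047580-34917095 (Hdac9). Mef2a overlaps Lysmd4, Mef2d overlaps 1700113A16Rik and Hdac7 overlaps Slc48a1, each on the opposite strand, and the sources do not say whether strand was used in counting. Mef2a also overlaps Gm44667 and Gm44668 on its own strand. Reads in these overlaps, and in small transcripts annotated inside Hdac4, Hdac5 and Hdac9, could have been lost or assigned to either gene. Mef2c overlaps no other annotated gene.

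The raw counts were deposited per gene, and between 20898611 and 27223414 reads were counted per sample. Septin9 itself fell to 38.9% of control in C2C12 cells (log2 fold change −1.36, SE 0.08, adjusted p = 5.11e-09) and to 43.2% in primary myoblasts (−1.21, SE 0.15, adjusted p = 0.000134), and was lower in 4 of 4 replicate pairs. The 7 myoblast markers, among them Myod1, Des and Pax7, summed to between 1057 and 1814 CPM (counts per 1000000 reads counted, scaled by TMM over all 8 samples) in C2C12 samples and to between 3305 and 6190 CPM in primary myoblast samples, with none at 0. Of the other cell types examined, endothelial markers summed to at most 0.280 CPM in C2C12 cells and 4.77 CPM in primary myoblasts, immune markers to at most 4.38 CPM and Schwann cell markers to at most 2.49 CPM. Kdr was at 0 in all C2C12 samples, Ptprc and Itgam in all C2C12 samples and Adgre1 in all C2C12 and both control primary samples. Fibro-adipogenic markers summed to between 127 and 165 CPM in C2C12 cells. Most of that came from Cd34 and Ly6a, while Dcn stood at 2.72 CPM or below and Dpt at 0.735 CPM or below. In primary myoblasts the list summed to between 11.5 and 13.0 CPM in replicate 1, with both siRNAs. In replicate 2 it summed to between 83.4 and 86.9 CPM. Smooth muscle and pericyte markers reached between 24.5 and 42.2 CPM in C2C12 cells, 29.3 and 30.1 CPM in replicate 1 of primary myoblasts and 91.2 and 92.5 CPM in replicate 2. Fewer cells that express a gene and less of its RNA per cell cannot be told apart in bulk RNA.

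In control C2C12 cells Mef2a was the leading Mef2 factor and Mef2c was close to absent, whereas control primary myoblasts held all 3. Per length of exon, as RPKM (CPM per kilobase), Mef2a stood at 23.0 and 32.5 in the control C2C12 replicates and at 102 and 45.4 in the control primary replicates. Mef2d, the broadly expressed member, stood at 13.5 and 14.5 RPKM in C2C12 and at 26.4 and 18.3 RPKM in primary myoblasts. Mef2c, which is needed for the skeletal myofibre and the heart, stood at 0.0567 and 0.0871 RPKM in C2C12 controls and at 47.0 and 15.99 RPKM in primary controls. For each of the Mef2 genes both primary values lay above both C2C12 values, and in this comparison the control groups did not overlap for 74.9% of all genes tested.

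Mef2c rested on 10 and 19 raw counts in control C2C12 cells and 8 and 20 in Septin9-deficient ones, against 8774 and 3449 in control primary myoblasts and 10466 and 6074 after Septin9 siRNA. As a share of the summed RPKM of the Mef2 genes, Mef2c made up between 0.130% and 0.232% in C2C12 samples and between 20.0% and 31.8% in primary myoblast samples. Mef2a made up between 57.2% and 69.1% in C2C12 cells and between 51.0% and 58.0% in primary myoblasts, so that the share given to Mef2d was lower in primary samples, at 15.1% to 23.0% against 30.8% to 42.7%. Mef2b, the remaining family member, had at most 4 counts in any sample and was not tested.

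**Figure D1:**
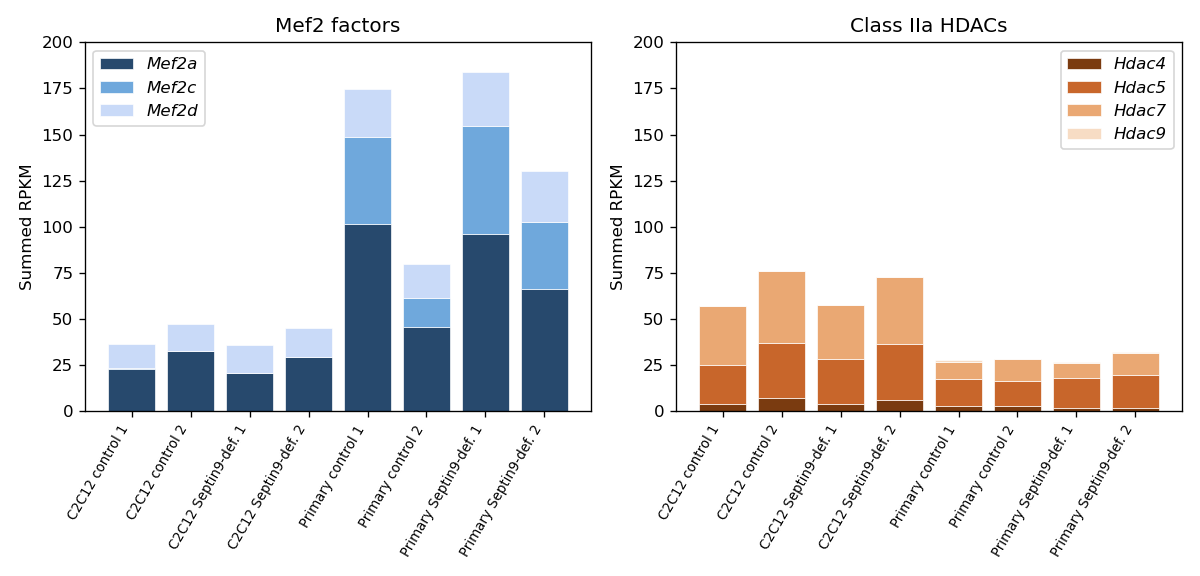
Summed RPKM of the Mef2 factors (left) and of the class IIa histone deacetylases (right) in each of the 8 samples, as stacked bars from 0 with 1 bar per sample and the replicate number at its end. Mef2c is visible only in the primary myoblast bars, and the deacetylase bars are lower in primary myoblasts than in C2C12 cells.

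The class IIa deacetylases were lower in primary myoblasts, apart from Hdac9. Hdac7 was the leading one in control C2C12 cells, at 31.6 and 39.0 RPKM, and stood at 9.52 and 11.9 RPKM in control primary myoblasts. Hdac5 stood at 21.3 and 29.8 RPKM in C2C12 and at 14.7 and 13.5 RPKM in primary controls. Hdac4, the deacetylase best known for its rise in denervated muscle, stood at 3.90 and 7.14 RPKM in C2C12 and at 2.47 and 2.699 RPKM in primary controls. Hdac9 was the least abundant, with 0.0864 and 0.236 RPKM in C2C12 and 0.796 and 0.296 RPKM in primary controls. The values of Hdac4, Hdac5 and Hdac7 did not overlap between the 2 control groups, nor did those of Hdac9, whose closest values were 0.236 and 0.296 RPKM, so that all 7 members were among the 74.9% of genes without overlap.

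Ordered by mean RPKM, control C2C12 cells ran from Hdac7 (35.3 ± 5.18, SD, n = 2) through Mef2a (27.8 ± 6.75), Hdac5 (25.5 ± 6.04), Mef2d (13.998 ± 0.705), Hdac4 (5.52 ± 2.29) and Hdac9 (0.161 ± 0.106) to Mef2c (0.0719 ± 0.0215). The replicates of Hdac7, Mef2a and Hdac5 overlapped with their neighbours, as did those of Hdac9 and Mef2c, and Mef2d and Hdac4 stood apart. In control primary myoblasts the order was Mef2a (73.5 ± 39.7), Mef2c (31.5 ± 21.9), Mef2d (22.4 ± 5.70), Hdac5 (14.1 ± 0.839), Hdac7 (10.7 ± 1.71), Hdac4 (2.59 ± 0.160) and Hdac9 (0.546 ± 0.354). Here the 3 Mef2 genes overlapped with their neighbours, and in replicate 2 Mef2d was above Mef2c, while each deacetylase was separate from the next. The summed RPKM of the Mef2 genes over that of the deacetylases was between 0.616 and 0.643 in the 4 C2C12 samples and between 2.80 and 6.91 in the 4 primary myoblast samples.

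Tested with edgeR's quasi-likelihood test over all 8 samples, 6 of the 7 members differed between the control groups, where 41.7% of all 17918 genes tested were called (21.6% higher and 20.1% lower in primary myoblasts). Mef2c was 428-fold higher in primary myoblasts (log2 difference 8.74, SE 0.76, adjusted p = 0.000546). Mef2a was 2.65-fold (log2 1.40, SE 0.42, adjusted p = 0.0347) and Mef2d 1.60-fold higher (0.68, SE 0.18, adjusted p = 0.0246). Hdac7 was at 0.304 of the C2C12 level (log2 −1.72, SE 0.24, adjusted p = 0.00245), Hdac4 at 0.468 (−1.10, SE 0.33, adjusted p = 0.0363) and Hdac5 at 0.552 (−0.86, SE 0.20, adjusted p = 0.0143). Hdac9 did not pass (log2 1.74, SE 0.65, adjusted p = 0.0708), but it did with DESeq2 (adjusted p = 0.0240), which called all 7 members, and without the filter on low counts (adjusted p = 0.0283). With 2 replicates per group the calls other than Mef2c and Hdac7 were lost without C2C12 control replicate 2. Without primary control replicate 1 Hdac5 stayed called as well, and without primary control replicate 2 Hdac9 was called. Each fit without 1 control sample leaves a group of 1, and it called fewer of all genes than the fit of all 8 samples. A fit of the 4 control samples alone called 3 members and 5901 of 17103 genes, against 7463 of 17918 with all 8 samples.

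**Figure D2:**
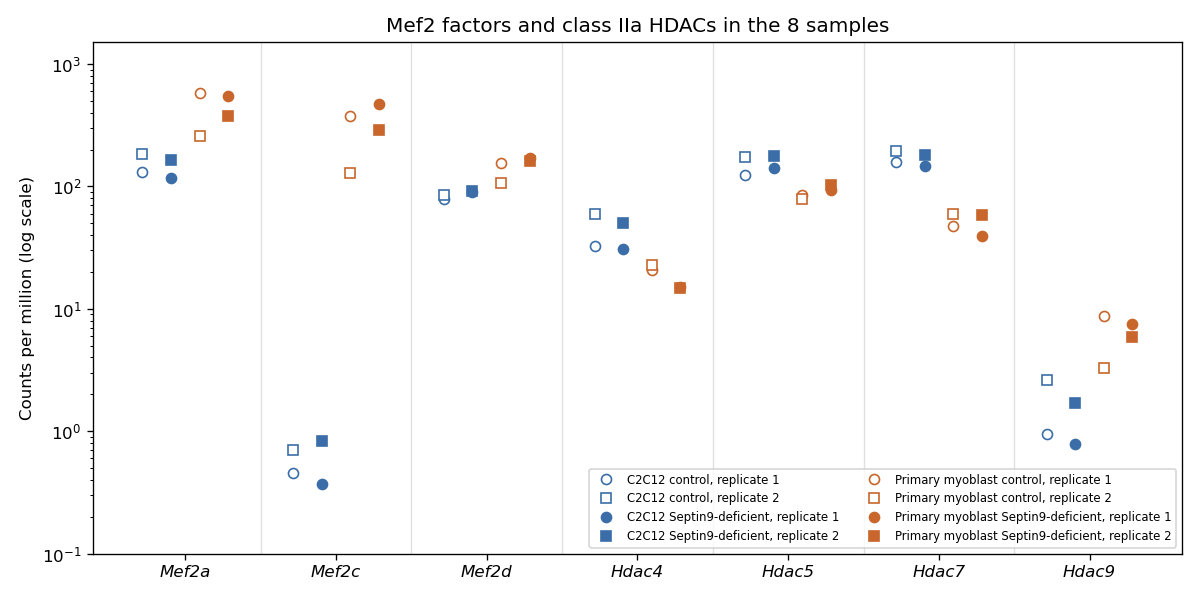
CPM on a log axis for each of the 7 genes, with open symbols for control and filled symbols for Septin9-deficient samples, circles for replicate 1 and squares for replicate 2. Mef2c lies below 1 CPM in every C2C12 sample and above 100 CPM in every primary myoblast sample.

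To ask whether Septin9 depletion changed these regulators during early differentiation, control and Septin9-deficient C2C12 cells were compared within replicate pairs. None of the 7 members passed an adjusted p of 0.05 with edgeR, where 6.75% of 15814 genes did (2.64% higher and 4.12% lower) and 1.57% were DEGs, which passed the fold change threshold of the study as well. All 7 members passed the filter on low counts in each comparison. At an unadjusted p under 0.05 there were 2, Mef2a and Hdac4, where 2962 of the 15814 genes were. DESeq2 gave 0 members at either threshold, where 1069 of the 15814 genes had an unadjusted and 283 an adjusted p under 0.05. Mef2a stood at 131 and 185 CPM in controls and 116 and 166 CPM in Septin9-deficient cells (log2 fold change −0.17, SE 0.07, adjusted p = 0.144). Hdac4 stood at 32.7 and 59.8 CPM in controls and 30.6 and 50.4 CPM in Septin9-deficient cells (−0.18, SE 0.07, adjusted p = 0.162). Both were slightly lower in each pair, by less than the distance between the replicates.

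The other members in C2C12 cells lay between −0.49 (Hdac9, SE 0.30) and 0.14 (Mef2d, SE 0.07) on the log2 fold change scale. Hdac7 stood at 158 and 195 CPM in controls and 148 and 182 CPM after Septin9 siRNA, and Hdac5 at 123 and 173 CPM in controls and 142 and 176 CPM after it. Mef2d stood at 78.9 and 84.7 CPM in controls and 89.3 and 91.9 CPM in Septin9-deficient cells. The Mef2d groups did not overlap, as for 25.4% of all genes tested, while those of the 6 other members did.

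In proliferating primary myoblasts 2 of the 7 members passed the same test, where 4.99% of 17117 genes did. Mef2c rose, as did 3.95% of all genes tested, and Hdac4 fell, as did 1.04%. Mef2c was at 377 and 128 CPM in control replicates 1 and 2 and at 468 and 290 CPM in the Septin9-deficient ones. It was higher in both pairs, with log2 ratios of 0.31 and 1.18, but the groups overlapped, since control replicate 1 lay above Septin9-deficient replicate 2. The fitted log2 fold change was 0.74 (SE 0.16), 1.68-fold, with an adjusted p of 0.0116, which made it a DEG, as 3.17% of the genes tested were.

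Hdac4 was at 20.7 and 22.6 CPM in the controls and at 15.2 and 14.9 CPM after Septin9 siRNA. Both Septin9-deficient values lay below both controls, and 27.8% of all genes tested had groups that did not overlap here, with log2 ratios of −0.45 and −0.60 in the pairs. Its fitted log2 fold change was −0.52 (SE 0.13), to 0.696 of control, with an adjusted p of 0.0236, short of the fold change of a DEG. Neither call was stable to the choice of method. Mef2c had an adjusted p of 0.0851 with RLE size factors, 0.0986 with library size alone and 0.793 with DESeq2. For Hdac4 it was 0.0700, 0.0630 and 0.425, and without the replicate block neither passed. These settings called fewer of all 17117 genes too. The calls went from 854 to 295 with RLE size factors, 236 with library size alone, 256 with DESeq2 and 0 without the block. Mef2c and Hdac4 stayed called when either replicate pair was left out, and Mef2a, Mef2d and Hdac5 were added without pair 1. Both of these fits leave 1 sample per group, and they called more of all genes than the fit of both pairs.

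The remaining Mef2 genes in primary myoblasts were Mef2a and Mef2d. Mef2a stood at 578 and 259 CPM in controls and at 547 and 378 CPM in Septin9-deficient cells, lower in pair 1 and higher in pair 2 (log2 fold change 0.24, SE 0.15, adjusted p = 0.477). Mef2d stood at 154 and 107 CPM in controls and at 171 and 162 CPM in Septin9-deficient cells, both above both controls (0.37, SE 0.13, adjusted p = 0.106). Hdac5 likewise had both Septin9-deficient values, 94.0 and 103 CPM, above both controls at 85.2 and 78.3 CPM, without passing (0.27, SE 0.11, adjusted p = 0.208). Mef2d, Hdac4 and Hdac5 were the 3 of 7 members without overlap here, as were 27.8% of all genes tested. Hdac7 (47.7 and 59.8 CPM in controls, 39.6 and 58.1 CPM in Septin9-deficient cells) and Hdac9 (8.80 and 3.27 CPM in controls, 7.47 and 5.91 CPM in Septin9-deficient cells) overlapped between the groups.

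**Figure D3:**
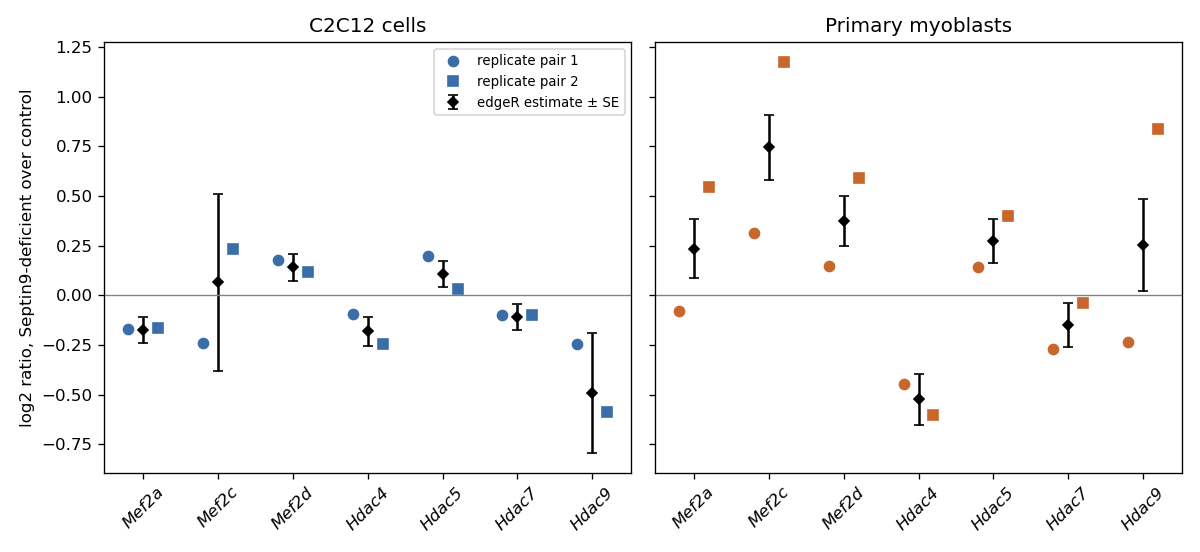
The log2 ratio of Septin9-deficient over control CPM within each replicate pair (circles, pair 1, and squares, pair 2) and the edgeR log2 fold change with its SE (diamonds), for C2C12 cells at the left and primary myoblasts at the right. In primary myoblasts Hdac4 lies below 0 and Mef2c above 0 in both pairs, while Mef2a and Hdac9 change side between the pairs.

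Across both cell types 4 of the 7 members had the same direction in 4 of 4 replicate pairs, where 26.3% of 15073 genes tested in both did. Mef2d and Hdac5 were higher in each pair, with log2 ratios between 0.12 and 0.59 for Mef2d and between 0.03 and 0.40 for Hdac5. Hdac4 and Hdac7 were lower in each, with log2 ratios between −0.09 and −0.60 for Hdac4 and between −0.04 and −0.27 for Hdac7. Mef2d, Hdac5 and Hdac7 did not pass in either cell type, apart from Mef2d and Hdac5 in primary myoblasts without replicate pair 1 and Mef2d there without the filter on low counts (adjusted p = 0.036).

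No member passed an adjusted p of 0.05 in the interaction test of edgeR, which compares the responses of the cell types. As 0% of 17918 genes passed, the test does not show that the responses were alike. At an unadjusted p under 0.05 there was 1 member, Hdac4, against 8.20% of all genes. DESeq2 called 0 members, where 21 of 17918 genes passed. For Hdac4 the change in primary myoblasts was lower than that in C2C12 cells by a log2 difference of −0.35 (SE 0.13, adjusted p = 0.521). For Mef2c the difference was 0.66 with an SE of 0.63, so the passing of Mef2c in primary myoblasts and not in C2C12 cells was not shown to be a difference between them.

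Several members differed more between the replicates of a cell type than between the siRNAs. In C2C12 cells 5 of the 7 were higher in replicate 2, where 35.7% of all genes differed, with log2 differences of 0.77 for Hdac4 (SE 0.07, adjusted p = 1.02e-07), 1.26 for Hdac9 (SE 0.31), 0.47 for Mef2a (SE 0.07), 0.37 for Hdac5 (SE 0.07) and 0.27 for Hdac7 (SE 0.07). In primary myoblasts 4 of the 7 differed, where 24.5% of all genes did. Mef2c was lower in replicate 2 by a log2 difference of −1.10 (SE 0.17, adjusted p = 5.69e-05), Mef2a by −0.82 (SE 0.15) and Hdac9 by −0.85 (SE 0.23), while Hdac7 was higher by 0.46 (SE 0.11). Myog, the myogenin gene, moved with Mef2c and stood at 1019 and 401 CPM in control replicates 1 and 2, and the fibro-adipogenic markers stood at 13.0 and 86.9 CPM in the same samples. Their part in the difference was not tested.

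**Figure D4:**
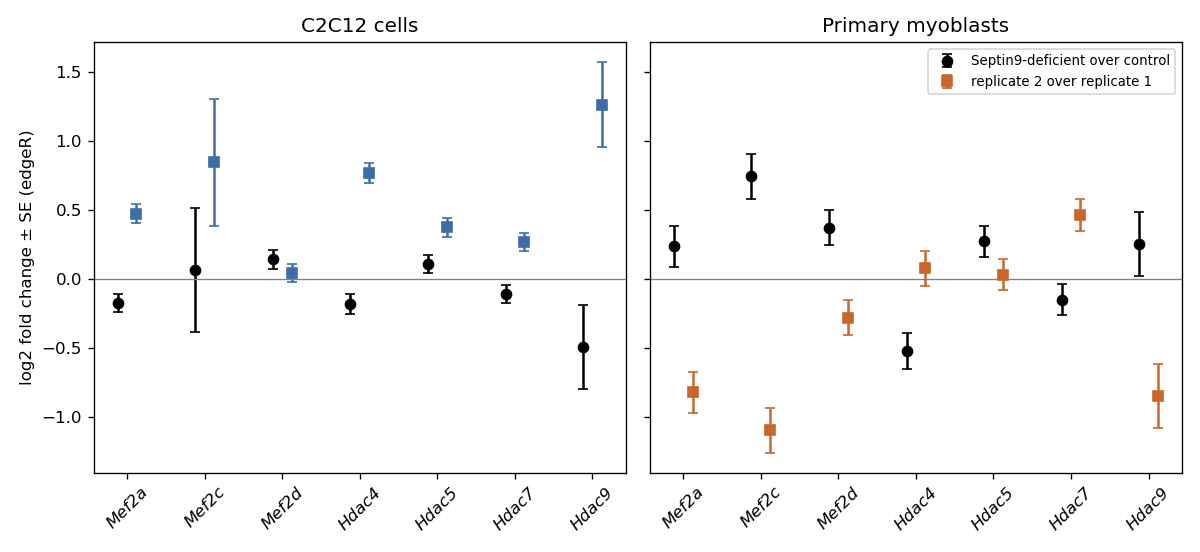
The edgeR log2 fold change with its SE of Septin9-deficient over control samples (black circles) and of replicate 2 over replicate 1 (coloured squares) for each gene, with C2C12 cells at the left and primary myoblasts at the right. The replicate difference of Hdac4 in C2C12 cells, 0.77, and of Mef2c in primary myoblasts, −1.10, exceed the siRNA differences of the same genes.

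Of 16 listed genes that Mef2 factors are known to bind or activate, all of them tested, 10 rose in primary myoblasts, where 3.95% of all genes did, and 0 fell, with a median log2 fold change of 0.71 against 0.01 over all genes tested. Among them Slc2a4, the insulin-responsive glucose transporter, rose from 5.75 and 2.79 CPM to 11.9 and 9.06 CPM (log2 fold change 1.35, SE 0.20, adjusted p = 0.000656). Ckm, the muscle creatine kinase, rose from 86.5 and 21.3 CPM to 133 and 69.9 CPM (1.14, SE 0.18, adjusted p = 0.000852). Srpk3, a muscle protein kinase, rose from 46.9 and 10.2 CPM to 68.1 and 33.0 CPM (1.06, SE 0.18, adjusted p = 0.00219). The Ckm and Srpk3 groups overlapped, with replicate 1 above replicate 2 for either siRNA, while those of Slc2a4 did not. The count was 4 with RLE size factors, 3 with library size alone and 0 without the replicate block. Genes called higher over the whole of the 17117 tested went from 676 to 247 and 177 with these scalings. Without the block 0 were called.

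In C2C12 cells 3 of the 14 tested Mef2 targets rose, where 2.64% of all genes did, and 0 fell. Their median log2 fold change was 0.64, against −8e-04 over all genes. Many of the targets stood near the floor in C2C12 cells, and the median rests in part on them. Ckm and Xirp1, for example, stood at means of 0.739 and 1.42 CPM in controls, with an SE of 0.39 and 0.28. Smyd1, a methyltransferase of the sarcomere, rose from 1.05 and 2.24 CPM to 2.33 and 4.72 CPM (1.10, SE 0.24, adjusted p = 0.00854). Myog rose from 5.19 and 37.5 CPM to 15.9 and 63.7 CPM (1.03, SE 0.12, adjusted p = 2.3e-05) and Des, the desmin gene, from 437 and 507 CPM to 651 and 677 CPM (0.49, SE 0.07, adjusted p = 0.000261). Without pair 1 only Smyd1 stayed called, and without pair 2 only Myog. Both fits leave 1 sample per group, and they called fewer of all genes than the fit of both pairs. Between the controls 13 of the 16 were higher in primary myoblasts, where 21.6% of all genes were. Several of the 16 stood at or near 0 in control C2C12 cells, such as Ppargc1a at 0 and Srpk3 at a mean of 0.0639 CPM. The median log2 difference of all 16 was 6.86, against 0.02 over all genes. Many of these genes also answer to the myogenic bHLH factors, and Myod1 itself rose in C2C12 cells (log2 fold change 0.54, SE 0.07, adjusted p = 4.6e-05), while in primary myoblasts it stood at 0.15 (SE 0.14, adjusted p = 0.658).

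**Figure D5:**
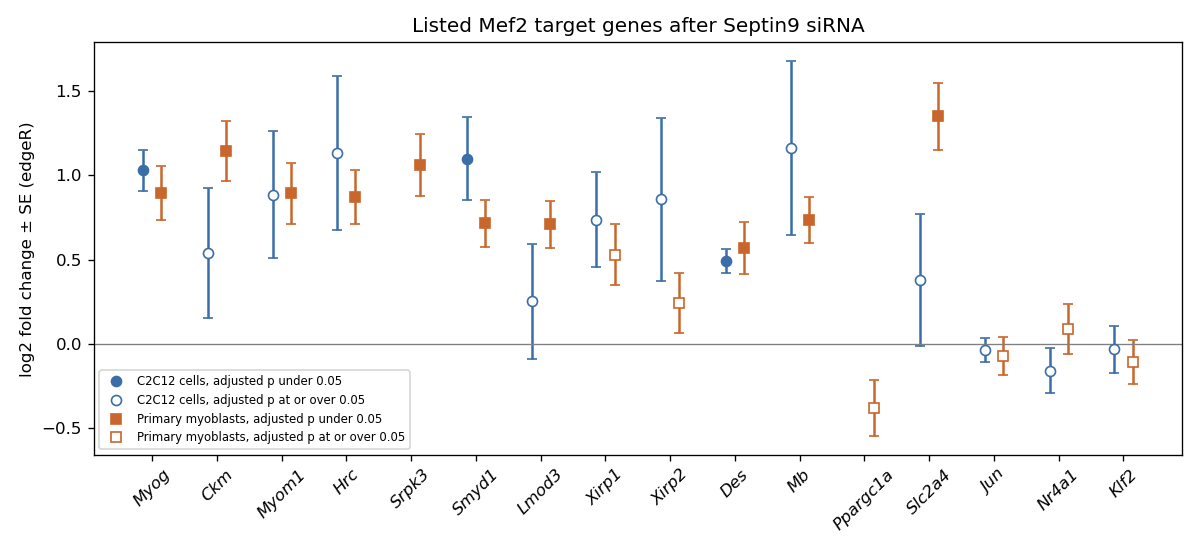
The edgeR log2 fold change with its SE after Septin9 siRNA for the 16 listed Mef2 target genes in C2C12 cells (circles) and primary myoblasts (squares), filled where the adjusted p is under 0.05. The 10 filled squares and 3 filled circles all lie above 0, and Jun, Nr4a1 and Klf2 at the right lie near 0. Ppargc1a in primary myoblasts lies below 0, at −0.38 (SE 0.17), and did not pass.

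Among the endplate genes that Hdac4 is known to act on through Dach2 and Myog, 5 were tested and none was lower. In C2C12 cells 3 of the 5 were higher, where 2.64% of all genes were. In primary myoblasts 1 of the 5 was higher, where 3.95% of all genes were. Besides Myog the genes called were Chrna1 and Musk, both in C2C12 cells. Chrna1, the alpha subunit of the acetylcholine receptor, rose by a log2 fold change of 0.51 (SE 0.08, adjusted p = 0.000811). Musk, the receptor kinase of the endplate, rose by 0.46 (SE 0.09, adjusted p = 0.00283). Myog rose in primary myoblasts by a log2 fold change of 0.89 (SE 0.16, adjusted p = 0.00266). It is also counted among the Mef2 targets and the myoblast markers. Dach2 was not tested and stood at 0.149 CPM or below in every sample, a value looked up after the others were seen.

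Kinases that phosphorylate the deacetylases and so free Mef2 were examined next. Of the 16 listed class IIa HDAC kinases 2 rose in primary myoblasts, where 3.95% of all genes did, both of them CaM kinase II subunits. Camk2b stood at 18.2 and 12.3 CPM in controls and 30.0 and 16.9 CPM in Septin9-deficient cells (log2 fold change 0.60, SE 0.13, adjusted p = 0.0103), and Camk2a at 36.7 and 10.3 CPM in controls and 41.7 and 22.1 CPM in Septin9-deficient cells (0.60, SE 0.17, adjusted p = 0.0416). The groups of both overlapped. The more abundant subunit genes Camk2d and Camk2g, at means of 94.0 and 130 CPM in primary controls, did not pass (0.14 and 0.09). In C2C12 cells 1 of the 15 tested kinases rose, where 2.64% of all genes did. It was Sik1, a salt-inducible kinase, from 16.7 and 23.2 CPM to 22.8 and 28.8 CPM (0.37, SE 0.09, adjusted p = 0.0134). The medians of the kinases were 0.05 and 0.02 on the log2 scale.

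Over all genes tested, 6.75% passed in C2C12 cells (4.12% lower) and 4.99% in primary myoblasts (3.95% higher). Among the 18 coactivators and upstream kinases of Mef2, 0 passed in primary myoblasts. In C2C12 cells 1 of 17 fell, the p38 kinase gene Mapk14 (log2 fold change −0.34, SE 0.08, adjusted p = 0.0137). Of the 7 genes of 14-3-3 proteins 0 passed in primary myoblasts and 1 fell in C2C12 cells, Ywhae (−0.34, SE 0.07, adjusted p = 0.00565). None of the 7 corepressor genes, among them those of the NCoR complex, passed in either cell type. Of the 7 other zinc-dependent histone deacetylases 0 passed in C2C12 cells and 1 rose in primary myoblasts, Hdac11, from 11.8 and 7.77 CPM to 17.1 and 13.0 CPM (0.64, SE 0.15, adjusted p = 0.0170). Hdac1 was listed under its own name and as a further copy, between which reads were split differently in the 2 cell types, so its level is uncertain. No member had such a copy.

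Myoblast markers also changed after Septin9 siRNA, in C2C12 cells too, where none of the 7 members passed. Of all genes tested 2.64% rose and 4.12% fell in C2C12 cells, and 3.95% rose and 1.04% fell in primary myoblasts. Of the 7 myoblast markers 4 rose in C2C12 cells (Myod1, Des, Cdh15 and Myog), with Cdh15 at a log2 fold change of 0.38 (SE 0.07, adjusted p = 0.00245), and Myf5, Pax7 and Itga7 did not pass, at 0.03, 0.05 and 0.16. In primary myoblasts Des (0.57, SE 0.16, adjusted p = 0.0409) and Myog rose, and Myf5 (−0.78, SE 0.16, adjusted p = 0.00679) and Pax7 (−0.44, SE 0.11, adjusted p = 0.0221), both genes of undifferentiated myoblasts, fell. Cdh15 and Itga7 stood at 0.16 and 0.05. Cd34, listed with the fibro-adipogenic markers, fell in C2C12 cells (−0.36, SE 0.07, adjusted p = 0.00319). In primary myoblasts 0 of the 4 tested fibro-adipogenic markers passed. The part of these changes in those of Mef2c and Hdac4 was not tested.

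The genes whose profile over the 8 samples was nearest to that of a member were found by the root mean square difference of log2 CPM, each gene centred on its mean, among 12212 genes with a mean of at least 5 CPM. For Mef2c they were Col25a1, which encodes a muscle collagen needed for motor innervation, and Zdbf2, at 0.25 and 0.30. The profiles nearest to Hdac4 were those of Elk4 and Pygo1, at 0.16 and 0.17, and to Hdac9 those of Asb2 and Slc4a3, at 0.27 and 0.33. Mef2a was nearest to Mospd1 and Zfp106 (both 0.13), Mef2d to Kpna1 and Spryd4 (0.07 and 0.08), Hdac5 to Iqsec2 and Natd1 (0.06 and 0.07) and Hdac7 to Mical1 and Gm51796 (both 0.07). The measure is dominated by the difference between the cell types and the replicates, and is given as a description.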

How the data were processed

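RNA with a polyA tail was sequenced from the 8 samples. Paired-end reads were mapped to GRCm38.p6 with STAR and counted with featureCounts 2.0.1, and the authors deposited the raw counts per gene. They also deposited, per cell type, a normalized signal after ComBat-Seq and the size factors of DESeq2 1.40.1, from which whole counts were recovered in 100% of values within 0.05 and used as an alternative. Samples were grouped by their labels, and 16 broken lines, none of a member, were left out.

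Members and lists were chosen with earlier results of these data known. In R 4.3.3, edgeR 4.0.16 (filterByExpr, TMM, quasi-likelihood test, Benjamini-Hochberg over all genes tested) was fitted per cell type with the replicate number as a block, as the study's methods model the independent experiments as batches. Replicates were paired by their number in the labels. With only 2 pairs per cell type it could be checked only by the correlation of same-numbered deviations, 0.70 for C2C12 and 0.81 for primary myoblasts. The interaction used all 8 samples with the block, and the control comparison all 8 without it. Each SE was computed as the fold change over the root of F. Log2 pair ratios used a prior count of 2, and RPKM the union of coding-transcript exons in GENCODE M21. P-values of the siRNA comparisons and the interaction rest on how far the differences of the 2 pairs disagree, with the spread shared across genes. The block takes up the difference between the experiments. In the control comparison they rest on the spread within groups, where same-numbered control and Septin9-deficient samples are not independent. A DEG also passed the fold change threshold of the study, and no column of values was left unassigned. All gene names (100%) were found among the RefSeq symbols, whereas the study names Gencode.

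Named genes are the members, Septin9, up to 3 called genes per list and cell type with the largest change, all myoblast markers and the 2 nearest profiles per member. Alternatives were RLE size factors, library size alone, no filter, at least 10 counts in every sample, no block, DESeq2 1.42.0 on raw and on batch-corrected counts, 1 fit of all samples, an adjusted p of 0.01 and leaving out replicates. The fit was tested on simulated data. Figures were drawn with matplotlib 3.10.9.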

Additional observations from a re-analysis of the deposited data

How the results depend on the processing

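In C2C12 cells 0 members passed after Septin9 siRNA under each alternative run, and for the interaction also 0. In primary myoblasts the count of 2 became 0 with RLE size factors, library size alone, DESeq2 with the same design or an adjusted p under 0.01. It became 1 with DESeq2 on the batch-corrected counts (Hdac4) and 1 with the fold change threshold of a DEG (Mef2c). Over all genes the calls went from 854 of 17117 to 295 with RLE size factors, 236 with library size alone and 256 with DESeq2. On the batch-corrected counts 931 of 17083 genes were called. The count of members rose to 3 without the filter on low counts, as Mef2d passed (adjusted p = 0.036), where 1256 of 27057 genes were called. With no replicate block it was 0, and that fit called 0 of all genes in either cell type, with 372 and 378 at an unadjusted p under 0.05. The block changed no call in the control comparison, where 6 passed with it. Leaving out replicate pair 1 added members in primary myoblasts, in a fit that called more of all genes as well. Leaving out 1 control sample lost members in the control comparison, in fits that called fewer of all genes as well. The 4 controls alone gave 3 members, where 5901 of 17103 genes were called. The control comparison gave 7 with DESeq2 (7818 of 17918 genes) or no filter (7531 of 28842 genes). It gave 5 with at least 10 counts in every sample (5537 of 14229 genes), which left Mef2c untested. DESeq2 called 1 member, Mef2a, between the primary replicates, where edgeR called 4. Of all 17117 genes they called 2005 and 4187. A pair or control sample was left out in a fit that pools the spread over all samples, so a lone sample is assumed to vary like the others.

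Directions reversed in 3 single values without replicate 2, none of them called there. On the log2 scale, leaving out a pair gave between −0.285 and 0.256 for Mef2c in C2C12 cells, between −0.0837 and 0.555 for Mef2a in primary myoblasts and between −0.240 and 0.861 for Hdac9 in primary myoblasts. Of the other single values, 292 kept their direction and side of the threshold or stayed within 1.5 times, 27 lost and 7 gained a call and 9 counts of Mef2 targets moved by over 1.5 times. In C2C12 cells the 3 Mef2 targets became 0 in 1 fit of all samples or without the block and 1 with DESeq2. Calls over all genes went from 1068 of 15814 to 111 of 17918 in 1 fit of all samples. They went to 0 without the block and 283 with DESeq2. In primary myoblasts the 10 became 6 with DESeq2 on batch-corrected counts, where 931 of 17083 genes were called. Scaling moved the median of all genes by less than 0.1, and library size alone moved the share of higher calls in C2C12 cells from 39.0% to 51.1%. Below about 20 counts, as for Mef2c in C2C12 cells, a change could not be detected at this depth unless large, with an SE of 0.45. The causes were not tested.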
